A study of Mus musculus with 24 samples.

Results

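The genes described here encode matrix metalloproteinases (MMPs) and their tissue inhibitors (TIMPs) in cultured mouse osteoblasts. They were chosen by symbol, 6 metalloproteinase genes (Mmp2, Mmp3, Mmp9, Mmp11, Mmp13 and Mmp14) and the 4 TIMP genes, and make up 10 of the 22180 genes that had a row of their own on the array. All 10 were among the 14892 genes tested. Timp4 entered the test through the later days, since it reached the median of its array on 10 of 24 arrays and on 0 arrays of days 2 and 5.

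The cells were primary osteoblasts freed with collagenase and trypsin from the calvaria, the skull vault, of C57BL/6J mouse pups aged 7 to 10 days. Labelled wild-type cells were compared with cells from β-arrestin 2 knockout pups on the C57BL/6J background. β-arrestin 2, the product of Arrb2, is an adaptor that desensitises G protein-coupled receptors. Cells of both genotypes were grown in medium with 10% serum, used at passage 2, and harvested on day 2, before differentiation, and on days 5, 10 and 28. Both genotypes received 50 mg/L ascorbic acid with 5 mM β-glycerophosphate from day 3, a mix that drives osteoblasts to lay down and mineralise matrix. The 8 groups, labelled wild type and labelled knockout on each of the 4 days, had 3 Affymetrix Mouse Gene 2.0 ST arrays each, hybridised from 100 ng of total RNA. The sources used here give neither the kind of deletion carried by the knockout nor the number of pups pooled for a preparation.

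Metalloproteinases are zinc-dependent enzymes that are made as inactive precursors and cleave the proteins of the extracellular matrix once their propeptide is removed. TIMPs bind the active site and block it, so matrix breakdown depends on the balance of enzyme and inhibitor. In bone, metalloproteinases take part in the removal of collagen during remodelling, and osteoblasts and hypertrophic cartilage cells are main sources of collagenase in the skeleton of the mouse.

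Values are the log2 RMA values deposited by the authors, so a difference of 1 is a 2-fold change, and the level of one gene was not compared with that of another. Group values are mean ± SD over 3 arrays. Differences are log2 differences with their standard error from a limma fit to all 24 arrays, and a gene is called changed when its Benjamini-Hochberg adjusted p over the 14892 genes was under 0.05. Every adjusted p below is from limma. Where the arrays of 2 groups are said not to overlap, this was common among all tested genes. Against day 2 it held for 23.4% of them on day 5, 41.6% on day 10 and 52.8% on day 28 in the labelled wild type. In the labelled knockout the shares were 22.9%, 43.2% and 47.7%.

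Arrb2 signal was not lower in the arrays labelled knockout. Its mean was 7.09 against 5.88 on day 2, 6.69 against 5.11 on day 5, 6.62 against 5.80 on day 10 and 6.85 against 6.44 on day 28 (labelled knockout first). The differences of days 2 and 5 passed the test (adjusted p = 0.0206 and 0.000357), but that of day 2 was lost without replicate 1, 2 or 3 of the labelled wild type (adjusted p = 0.150, 0.127 and 0.0873) or replicate 2 of the labelled knockout (0.175), and in a fit of those groups alone. The difference of the mean over the days was 1 and passed as well (adjusted p = 6.44e-06). On day 10 the adjusted p was 0.0932. It was 0.0455 with the replicate number as a block and 0.0367 without replicate 3 of the labelled wild type. On day 28 the adjusted p was 0.797. The signal goes against the labels. It is unknown where the probes lie relative to the deleted part, and directions between genotypes are given for the arrays as they are labelled. Of the 8 osteoblast markers, Ibsp, Phex and Bglap were called higher on day 28 than on day 2 in both genotypes, while Sp7 was called lower in the labelled wild type (-1.55, adjusted p = 0.0428) and changed by -0.61 in the labelled knockout (adjusted p = 0.454). The mean level of the list was 6.20 to 6.87 on the 6 arrays of day 2 and 6.82 to 9.89 on the 6 arrays of day 28. The mean level of 10 macrophage markers was 4.65 to 5.58 on day 2 and 7.26 to 10.77 on day 28. All 8 adipocyte markers were called higher on day 28 in both genotypes. Of all tested genes 19.6% rose in the labelled wild type and 19.4% in the labelled knockout. On day 2, 2 and 3 of the 8 adipocyte genes reached the array median on all arrays (labelled wild type first). For the 10 macrophage genes it was 3 and 4. The size of the rises of both lists is therefore uncertain. In a culture of mixed cells, more cells of a type and more RNA per cell cannot be told apart.

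Mmp13 and Mmp3 both lie in the metalloproteinase cluster of chromosome 9. By day 28 they had the largest rises from day 2 among the 10 genes in both genotypes. Their upstream sequences are shown because both genes were called higher on day 28. Each is the 250 bases before the annotated start on the plus strand, from RefSeq on GRCm38.p6, 5′ to 3′, with the matches to the motifs searched in capitals.
Mmp13, chr9:7272264-7272513: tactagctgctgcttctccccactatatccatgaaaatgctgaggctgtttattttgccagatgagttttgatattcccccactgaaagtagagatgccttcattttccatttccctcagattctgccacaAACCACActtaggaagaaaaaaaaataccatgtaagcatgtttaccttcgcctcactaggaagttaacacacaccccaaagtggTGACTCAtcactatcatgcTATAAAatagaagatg
Mmp3, chr9:7445572-7445821: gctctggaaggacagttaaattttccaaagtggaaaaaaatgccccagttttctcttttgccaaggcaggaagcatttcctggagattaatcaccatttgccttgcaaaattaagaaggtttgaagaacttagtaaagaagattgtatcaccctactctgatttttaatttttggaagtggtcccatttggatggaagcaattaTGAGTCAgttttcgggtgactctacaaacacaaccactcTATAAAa

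The AP-1 motif, searched as TGAGTCA and its other strand TGACTCA, lay at -46 to -40 in Mmp3 and at -35 to -29 in Mmp13, counted from the annotated start with the base before it as -1. The TATA motif, TATAAA or TTTATA, lay at -7 to -2 in Mmp3 and at -16 to -11 in Mmp13. The RUNX motif, AACCACA or TGTGGTT, was found in Mmp13 alone, at -119 to -113, and RUNX2 is the master transcription factor of osteoblasts. None of these matches overlapped another. Of the 8 members with a window in the RefSeq table, 2 held the AP-1 motif, 2 the TATA motif and 1 the RUNX motif. Over all 32851 promoter windows of the same length the shares were 4.46%, 12.4% and 4.4%. Mmp2 and Mmp9 were not matched to a window. A match is a description of the letters and not of binding.

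Mmp13 (chr9:7272514-7283333) encodes collagenase 3, the main interstitial collagenase of mouse bone, which cuts fibrillar collagen. It was low on day 2 and high on every later day in both genotypes. The labelled wild-type arrays read 6.60, 6.16 and 9.38 on day 2, then 12.31, 12.49 and 11.65 on day 5, 11.37, 11.48 and 11.65 on day 10, and 10.76, 9.90 and 11.74 on day 28. Those of the labelled knockout read 6.20, 8.06 and 9.38 on day 2, then 10.53, 11.71 and 12.14 on day 5, 12.79, 11.42 and 11.77 on day 10, and 11.86, 10.80 and 11.88 on day 28. No later array overlapped the day 2 arrays of its genotype, and day 2 was the most scattered group, with replicate 3 the highest of each genotype. Those arrays also had the highest mean level of 8 cartilage markers on day 2, 8.27 against 7.45 and 6.97 in the labelled wild type and 7.82 against 7.19 and 7.42 in the labelled knockout. Their mean level of 8 osteoblast markers was the highest of day 2 as well. It was 6.81 against 6.43 and 6.27 in the labelled wild type and 6.87 against 6.20 and 6.54 in the labelled knockout. The same held for the neutrophil markers (3.80 and 3.88, labelled wild type first), which lay under the array medians. Within groups, the deviations of Mmp13 had a correlation of 0.59 with the cartilage list, 0.48 with the osteoblast list and 0.44 with the neutrophil list. The part of any of these cell types was not tested. The rise by day 5 was 4.77 ± 0.75 (SE) in the labelled wild type, 27.3-fold, with adjusted p = 0.000727, and 3.57 ± 0.75 in the labelled knockout, 11.9-fold, with adjusted p = 0.0111. Against day 2, the labelled wild type was 17.4-fold higher on day 10 and 10.7-fold higher on day 28 (adjusted p = 0.000306 and 0.00113). The labelled knockout was 17.3-fold and 12.4-fold higher on those days (adjusted p = 0.000497 and 0.000692). The group mean of the labelled wild type was highest on day 5 (12.15 ± 0.44) and that of the labelled knockout on day 10 (11.99 ± 0.71), and among days 5, 10 and 28 no step from one day to the next passed the test in either genotype. The day 5 call of the labelled knockout was lost without replicate 1 of day 2 (2.73, adjusted p = 0.0585), without replicate 3 of day 5 (3.23, adjusted p = 0.0765) and in a fit of those 2 groups alone (adjusted p = 0.104). The other 5 rises of Mmp13 from day 2 were called under all 13 alternatives run, but all of its folds turned on the scattered day 2 arrays. For the labelled wild type they were 17.9-, 11.4- and 7.01-fold on days 5, 10 and 28 without replicate 2 of day 2, and 54.8-, 34.8- and 21.4-fold without replicate 3. For the labelled knockout they were 6.65-, 9.66- and 6.93-fold without replicate 1 of day 2, and 20-, 29- and 20.8-fold without replicate 3.

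**Figure D1:**
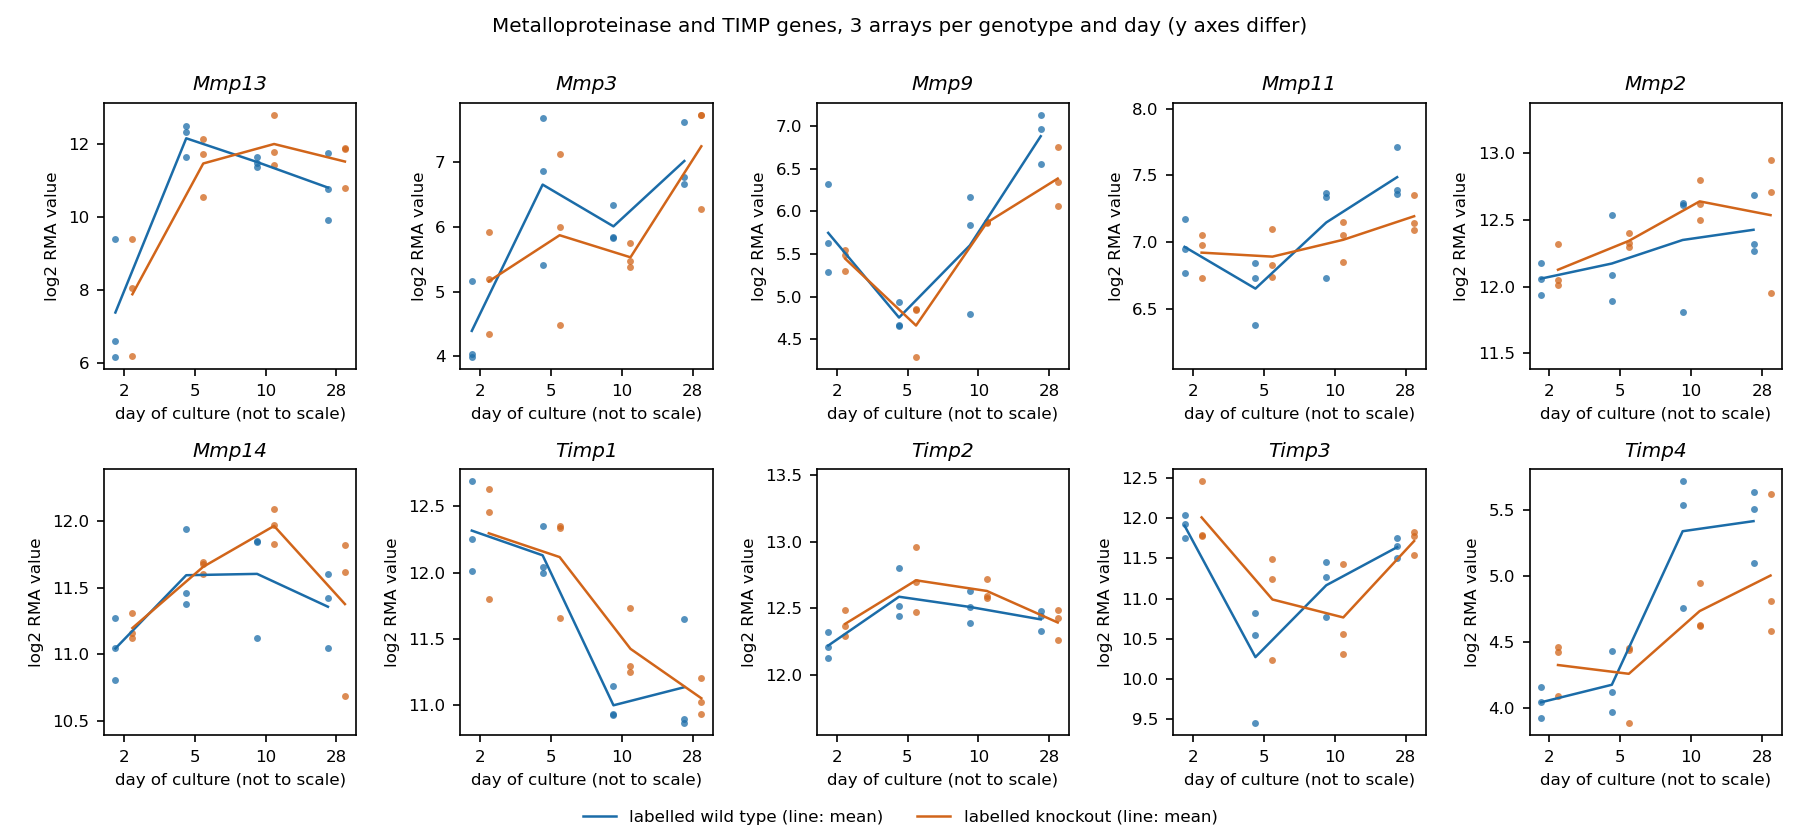
Log2 RMA values of the 10 genes (y axis, a separate scale in each panel) by day of culture (x axis, not to scale). Points are single arrays, 3 per genotype and day, and lines join the group means; Mmp13 leaves its day 2 range by day 5 in both genotypes, Timp1 falls between days 5 and 10, and Mmp2 and Timp2 stay within a narrow band.

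Mmp3 (chr9:7445822-7455975) encodes stromelysin 1, which cuts proteoglycans and fibronectin and activates other metalloproteinase precursors. Its labelled wild-type arrays read 4.03, 3.99 and 5.16 on day 2, then 7.68, 6.85 and 5.41 on day 5, 5.84, 6.34 and 5.83 on day 10, and 7.61, 6.77 and 6.65 on day 28. Labelled knockout arrays read 4.35, 5.92 and 5.20 on day 2, then 4.48, 7.12 and 6.00 on day 5, 5.74, 5.47 and 5.37 on day 10, and 7.72, 7.72 and 6.27 on day 28. All later arrays of the labelled wild type lay above its day 2 arrays, while in the labelled knockout days 5 and 10 overlapped day 2 and only day 28 lay clear of it. On day 2, 1 of 3 arrays of the labelled wild type and 2 of 3 of the labelled knockout reached the array median, so the size of its rises is uncertain. By day 28 Mmp3 had risen by 2.62 ± 0.60 (6.14-fold, adjusted p = 0.00158) in the labelled wild type and by 2.08 ± 0.60 (4.22-fold, adjusted p = 0.00893) in the labelled knockout. The labelled wild type also rose by 2.25 ± 0.60 on day 5 and 1.61 ± 0.60 on day 10 (adjusted p = 0.0292 and 0.0458). On those days the labelled knockout changed by 0.71 and 0.37, with 95% intervals of -0.53 to 1.95 and -0.87 to 1.61 (adjusted p = 0.649 and 0.705). The difference between these changes did not pass the test on either day: it was -1.54 on day 5, with an interval of -3.30 to 0.21, and -1.24 on day 10, with an interval of -3 to 0.52.

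The early rises of Mmp3 depended on single arrays. The day 5 call ended without replicate 1 or 2 of day 2 (adjusted p = 0.0978 and 0.128), without replicate 1 or 2 of day 5 (0.178 and 0.106), and in a fit of those groups alone (0.0548), and the rise was 7.3-fold without replicate 3 of day 5 in place of 4.76-fold. The day 10 call of Mmp3 ended without replicate 1 or 2 of day 2 (adjusted p = 0.131 and 0.143), without replicate 1, 2 or 3 of day 10 (0.0750, 0.132 and 0.0712) and with no filter on dim genes (0.0596). On day 28 the call of the labelled wild type held under all 13 alternatives, and that of the labelled knockout under 12, being lost without replicate 1 of day 2 (1.68, adjusted p = 0.0538).

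Mmp11 (chr10:75923221-75932502) encodes stromelysin 3, which is activated inside the cell by furin and has little action on the main matrix proteins. It had a narrow range, from 6.38 to 7.71 over the 24 arrays. Labelled wild-type arrays went from 7.17, 6.95 and 6.77 on day 2 to 7.36, 7.71 and 7.39 on day 28, with no overlap, a rise of 0.52 ± 0.17 (1.43-fold, adjusted p = 0.0232). Days 5 and 10 of that genotype averaged 6.65 ± 0.24 and 7.15 ± 0.36. The rise between them was 0.50 (adjusted p = 0.0745), and 0.50 with adjusted p = 0.0335 when the replicate number was a block. The day 28 change of the labelled knockout was 0.27, with an interval of -0.09 to 0.64. A second array row for Mmp11 gave 0.43 (adjusted p = 0.0224) in the labelled wild type and 0.16 (adjusted p = 0.409) in the labelled knockout on day 28. The day 28 call ended when replicate 2 or 3 of day 2 was left out (adjusted p = 0.0572 and 0.104), when replicate 2 of day 28 was (0.112), and with arrays centred on their medians (0.0544), while the step from day 5 to day 10 was called without replicate 1 of day 10 (0.70, adjusted p = 0.0126).

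Mmp9 (chr2:164940326-164955850) encodes gelatinase B, which cuts denatured collagen and is known in bone as a product of osteoclasts and macrophages. It dipped on day 5 and was highest on day 28. The labelled wild type read 5.29, 6.32 and 5.63 on day 2, then 4.67, 4.94 and 4.65 on day 5, 4.79, 5.84 and 6.17 on day 10, and 6.96, 6.55 and 7.13 on day 28. The labelled knockout read 5.30, 5.49 and 5.54 on day 2, then 4.84, 4.29 and 4.85 on day 5, 5.86, 5.87 and 5.87 on day 10, and 6.06, 6.34 and 6.75 on day 28. In both genotypes every day 5 array lay below every day 2 array and every day 28 array above. All Mmp9 values of day 5 lay within 0.36 of the array medians, and not every array of either genotype reached its median. The sizes of the fall by day 5 and of the changes from day 5 to day 10 are therefore uncertain. On day 28 Mmp9 had risen by 1.13 ± 0.29 (2.19-fold, adjusted p = 0.00375) in the labelled wild type and by 0.94 ± 0.29 (1.92-fold, adjusted p = 0.0136) in the labelled knockout. By day 5 it had fallen by 1.00 (1.99-fold, adjusted p = 0.0460) in the labelled wild type, and the change was -0.78 (adjusted p = 0.171) in the labelled knockout. The labelled knockout rose by 1.21 from day 5 to day 10 (2.31-fold, adjusted p = 0.0209) and the labelled wild type by 1.28 from day 10 to day 28 (2.43-fold, adjusted p = 0.0318). From day 5 to day 10 the labelled wild type changed by 0.85 (adjusted p = 0.0651), or 0.0381 with the replicate number as a block and 0.00500 without replicate 1 of day 10.

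The rise of Mmp9 by day 28 was called under all 13 alternatives in the labelled wild type, and in the labelled knockout under all but the fit without replicate 3 of day 28 (adjusted p = 0.0720). The fall by day 5 was lost in 5 of the 6 fits without 1 array: without replicate 2 or 3 of day 2 (adjusted p = 0.250 and 0.0865) and without replicate 1, 2 or 3 of day 5 (0.151, 0.0882 and 0.0909). It was also lost with no filter (0.0630) and with those groups alone (0.0704). The step from day 10 to day 28 in the labelled wild type was lost without replicate 1 of day 10 (0.88, adjusted p = 0.170), without replicate 1 or 3 of day 28 (0.125 and 0.154), with centred arrays (0.0623) and with those groups alone (0.175). The step from day 5 to day 10 in the labelled knockout was lost without replicate 1 or 2 of day 5 (adjusted p = 0.0654 and 0.120), without replicate 2 or 3 of day 10 (0.0762 and 0.0717) and with those groups alone (0.0532). Beside Mmp9, macrophage markers were called higher on day 28 than on day 2 for 9 of 10 genes in the labelled wild type and 10 of 10 in the labelled knockout. The shares of all tested genes that rose were 19.6% and 19.4%. Of 5 tested osteoclast markers 3 were called higher in each genotype, among them Acp5 (2.20 and 2.16, labelled wild type first) and Ctsk (1.53 and 1.64). Atp6v0d2 had a larger rise, from a mean of 2.79 on day 2 to 6.83 on day 28 in the labelled wild type and from 3.12 to 7.55 in the labelled knockout. Its day 2 values lay under the array medians, so the size of that rise is uncertain. Calcr, Oscar and Dcstamp, 3 of the 8 osteoclast genes, did not reach the filter. Neutrophil markers reached the array median on all arrays of a group for 0 of 6 genes in every group. Within groups, the deviations of Mmp9 had a correlation of -0.17 with the macrophage list, 0.21 with the osteoclast list and -0.07 with the neutrophil list. It was 0.39 with the osteoblast list, 0.25 with the cartilage list, 0.02 with the endothelial list and -0.4 with the adipocyte list. The part of any of these cell types in the Mmp9 result was not tested.

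Mmp2 (chr8:92827290-92853421) encodes gelatinase A, and Mmp14 (chr14:54431598-54442456) the membrane-bound MT1-MMP, which cuts collagen at the cell surface and activates the precursor of gelatinase A together with TIMP2. Mmp2 was not called in any comparison. It ranged from 11.81 to 12.95 over the 24 arrays, and its group means from 12.06 ± 0.12 (labelled wild type, day 2) to 12.64 ± 0.15 (labelled knockout, day 10). Its largest change from day 2 was 0.51, with an interval of 0.03 to 0.99 (labelled knockout, day 10, adjusted p = 0.117, and 0.0394 with those groups alone). On day 28 the change in the labelled knockout was 0.41 (adjusted p = 0.180), and without replicate 2 of day 28 it was 0.70 (adjusted p = 0.0179).

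Mmp14 read 11.31, 11.12 and 11.16 on day 2, 11.60, 11.68 and 11.69 on day 5, 11.97, 11.83 and 12.09 on day 10, and 11.82, 10.69 and 11.62 on day 28 in the labelled knockout. Days 5 and 10 of the labelled knockout lay clear above day 2, and replicate 2 of day 28 was the lowest of all 24 arrays. The rise by day 10 was 0.77 ± 0.24 (1.70-fold, adjusted p = 0.0255). Labelled wild-type arrays of Mmp14 read 11.05, 11.27 and 10.81 on day 2, 11.46, 11.94 and 11.38 on day 5, 11.12, 11.85 and 11.84 on day 10, and 11.05, 11.42 and 11.60 on day 28. Day 5 lay above day 2 there and days 10 and 28 overlapped it. The day 10 change was 0.56 (adjusted p = 0.0887), 0.0438 with the replicate number as a block and 0.0216 without replicate 1 of day 10. The day 10 call of Mmp14 in the labelled knockout ended without replicate 2 or 3 of day 2 (adjusted p = 0.0744 and 0.0728) and without replicate 1 or 3 of day 10 (0.0567 and 0.0842).

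Mmp2 and Mmp14 deviated together within groups. Over the 24 arrays their deviations from the group means had a Pearson correlation of 0.92, and 0.86 over the 22 arrays left without the 2 farthest from the median, which is given as a description. The arrays share their groups, and same-numbered arrays of a genotype may share a preparation. The lowest pair of deviations was that of replicate 2 of the labelled knockout on day 28, at -0.58 for Mmp2 and -0.69 for Mmp14, followed by replicate 1 of the labelled wild type on day 10, at -0.54 and -0.48. The former array had the highest mean macrophage marker level of all, 10.77, and the lowest osteoblast marker level of the 3 arrays of its group, 7.50 against 9.18 and 9.89. The latter had the highest adipocyte marker level of its group, 9.10 against 8.88 and 6.69, and the lowest osteoblast marker level, 6.72 against 7.11 and 7.67. Replicate 2 of the labelled wild type on day 10, with an adipocyte level of 8.88, had deviations of 0.28 for Mmp2 and 0.25 for Mmp14. Over the 24 arrays, the deviations of Mmp2 and Mmp14 had correlations of 0.51 and 0.48 with the osteoblast list. They were -0.27 and -0.3 with the macrophage list, -0.43 and -0.35 with the adipocyte list, and between -0.28 and 0.33 with the other lists. The part of any of these cell types in the paired deviations was not tested.

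**Figure D2:**
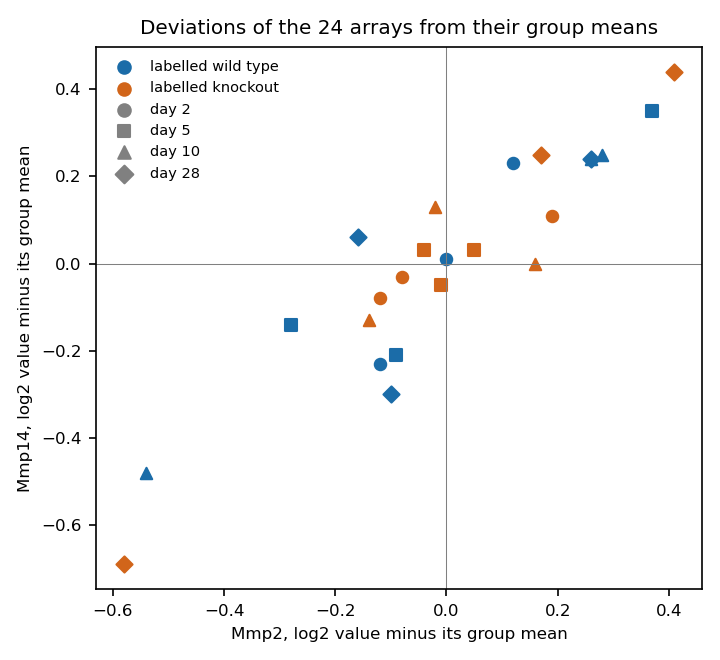
Deviation of each of the 24 arrays from its group mean for Mmp2 (x axis) and Mmp14 (y axis), in log2 units. Colours mark the labelled genotype and symbols the day; the points run along a diagonal, from replicate 2 of the labelled knockout on day 28 (-0.58, -0.69) up to replicate 1 of the same group (0.41, 0.44).

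Among the inhibitors, Timp1 (chrX:20870166-20874737), a secreted inhibitor of most soluble metalloproteinases, fell between day 5 and day 10. The labelled wild type read 12.01, 12.25 and 12.69 on day 2, 12, 12.04 and 12.35 on day 5, 10.92, 10.93 and 11.14 on day 10, and 10.89, 11.65 and 10.86 on day 28. The labelled knockout read 11.80, 12.46 and 12.63 on day 2, 12.34, 12.35 and 11.66 on day 5, 11.73, 11.29 and 11.25 on day 10, and 11.20, 11.02 and 10.93 on day 28. Days 10 and 28 lay below day 2 with no overlap in both genotypes, and day 5 overlapped day 2. By day 28 Timp1 had fallen by 1.19 ± 0.24 (2.27-fold, adjusted p = 0.000687) in the labelled wild type and by 1.25 ± 0.24 (2.38-fold, adjusted p = 0.000454) in the labelled knockout, both called under all 13 alternatives. On day 10 it had fallen 2.50-fold in the labelled wild type (adjusted p = 0.000373), with a drop of 1.13 since day 5 (adjusted p = 0.00527), again under all 13 alternatives. The labelled knockout had fallen 1.83-fold on day 10 (adjusted p = 0.0128), and its change since day 5 was -0.69 (adjusted p = 0.109). That day 10 call ended without replicate 2 or 3 of day 2 (adjusted p = 0.0522 and 0.0788) and without replicate 2 or 3 of day 10 (0.0511 and 0.0540). The step of Timp1 from day 5 in the labelled knockout was called without replicate 3 of day 5 (-0.92, adjusted p = 0.0308).

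Timp4 (chr6:115244444-115252205), which encodes the inhibitor found mainly in heart and fat tissue, went the other way. Its arrays in the labelled wild type read 4.16, 4.04 and 3.92 on day 2, 3.97, 4.43 and 4.12 on day 5, 5.54, 4.76 and 5.72 on day 10, and 5.64, 5.10 and 5.51 on day 28. Those in the labelled knockout read 4.09, 4.46 and 4.42 on day 2, 4.44, 3.88 and 4.45 on day 5, 4.63, 4.62 and 4.95 on day 10, and 4.58, 4.81 and 5.62 on day 28. In the labelled wild type every array of days 10 and 28 lay above every earlier one, and in the labelled knockout the gap was small except for replicate 3 of day 28. All values of days 2 and 5 lay under the array medians, so how large these rises were is uncertain. Timp4 had risen 2.46-fold by day 10 and 2.59-fold by day 28 in the labelled wild type (adjusted p = 0.000643 and 0.000261), with 1.16 of the rise since day 5 (adjusted p = 0.00590). All 3 were called under all 13 alternatives. The labelled knockout had risen by 0.68 ± 0.26 on day 28 (1.60-fold, adjusted p = 0.0404), and by 0.37 without replicate 3 of day 28 (adjusted p = 0.265). That call also ended without replicate 1, 2 or 3 of day 2 (adjusted p = 0.140, 0.0541 and 0.0653), with no filter (0.0551), with centred arrays (0.0962) and with those groups alone (0.0992).

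Markers of several cell types changed over the days on which Timp4 rose, adipocyte markers among them. Their mean level in the labelled wild type was 4.57 to 4.88 on day 2, 6.69 to 9.10 on day 10 and 9.76 to 10.02 on day 28. On days 10 and 28, 8 of 8 were called higher (background 14.4% and 19.6%). In the labelled knockout the level was 4.47 to 4.97, 4.81 to 6.75 and 8.34 to 8.72. There 1 of 8 was called higher on day 10, near its background of 11.1%, and 8 of 8 on day 28 (background 19.4%). Within groups, the deviations of Timp4 over the 24 arrays had a correlation of -0.31 with those of the adipocyte list, -0.51 with the macrophage list, 0.50 with the osteoblast list and 0.41 with the cartilage list, and between -0.25 and 0.04 with the osteoclast, endothelial and neutrophil lists. These are descriptions over arrays that share groups, and the part of any of these cell types in the Timp4 result was not tested.

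Timp3 (chr10:86300412-86349505) encodes the inhibitor that binds to the matrix itself and also blocks ADAM proteases. It was lower on days 5 and 10 than on day 2. The labelled wild type read 11.93, 12.04 and 11.75 on day 2, 9.45, 10.82 and 10.55 on day 5, 11.27, 11.46 and 10.77 on day 10, and 11.65, 11.51 and 11.76 on day 28. The labelled knockout read 11.78, 12.46 and 11.79 on day 2, 11.49, 11.24 and 10.24 on day 5, 10.56, 11.43 and 10.31 on day 10, and 11.78, 11.83 and 11.54 on day 28. In both genotypes days 5 and 10 lay below day 2 with no overlap, and day 28 overlapped it. The labelled wild type had fallen by 1.64 ± 0.34 on day 5 (3.11-fold, adjusted p = 0.00669), and the labelled knockout by 1.24 ± 0.34 on day 10 (2.37-fold, adjusted p = 0.0110). On day 5 the change in the labelled knockout was -1.02 (adjusted p = 0.127), called with the replicate number as a block (adjusted p = 0.0469), and on day 10 the change in the labelled wild type was -0.74 (adjusted p = 0.107), called with that block (0.0488) and with those groups alone (0.0247). By day 28 the changes from day 2 were -0.27 and -0.30, with intervals of -0.98 to 0.44 and -1.01 to 0.41. From day 10 to day 28 they were 0.47 (adjusted p = 0.680) and 0.95 (adjusted p = 0.159), neither past the test.

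From day 5 to day 10 Timp3 changed by 0.90 in the labelled wild type (adjusted p = 0.0995, 0.0407 with the replicate block and 0.0498 without replicate 2 of day 5). The day 5 fall of the labelled wild type was lost without replicate 1 of day 5 (-1.23, adjusted p = 0.0525). The day 10 fall of Timp3 in the labelled knockout was lost without replicate 2 of day 2 (-1.02, adjusted p = 0.0623) and without replicate 3 of day 10 (-1.02, adjusted p = 0.0641).

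Timp2 (chr11:118301061-118355411), whose product both inhibits gelatinase A and takes part in its activation, varied least. It ranged from 12.13 to 12.96 over the 24 arrays and was not called in any comparison. Its group means were 12.22 ± 0.10, 12.59 ± 0.19, 12.51 ± 0.12 and 12.41 ± 0.08 on days 2, 5, 10 and 28 of the labelled wild type and 12.38 ± 0.10, 12.71 ± 0.24, 12.63 ± 0.08 and 12.40 ± 0.12 of the labelled knockout. The changes by day 5 were 0.36 and 0.33, with intervals of 0.10 to 0.63 and 0.06 to 0.60 (adjusted p = 0.110 and 0.201).

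Set against all tested genes, the members were called as follows. By day 5, 2 of 10 rose and 2 fell in the labelled wild type, where 2.85% of all genes rose and 2.69% fell. By the same day 1 rose and 0 fell in the labelled knockout, where the background was 1.54% and 1.23%, and 4 of the 10 had an unadjusted p under 0.05. By day 10, 3 rose and 1 fell in the labelled wild type (background 14.4% and 16.2%), and 2 rose and 2 fell in the labelled knockout (11.1% and 13.6%). By day 28, 5 rose and 1 fell in the labelled wild type (19.6% and 19.2%), and 4 rose and 1 fell in the labelled knockout (19.4% and 18.6%). Timp4 is 1 of the risers by days 10 and 28 in the labelled wild type and by day 28 in the labelled knockout. It was tested only through its values of days 10 and 28, so its place among the risers is not independent of the filter. A single member is 10% of the list, so the fallers on days 10 and 28 lie within 1 gene of the background share. The same holds for both counts of the labelled knockout by day 5 and for its risers by day 10. The median change of the 10 genes from day 2 was 0.12, 0.29 and 0.44 in the labelled wild type and 0.09, 0.39 and 0.34 in the labelled knockout on days 5, 10 and 28, while the median of all tested genes lay between -0.04 and 0. The 3 comparisons of a genotype share its day 2 arrays. Between neighbouring days, 2 members were called from day 5 to day 10 in the labelled wild type (Timp1 and Timp4, background 10.5%) and 1 in the labelled knockout (Mmp9, 4.76%). From day 10 to day 28, 1 was called in the labelled wild type (Mmp9, 1.02%) and 0 in the labelled knockout (1.65%), where 3 of 10 had an unadjusted p under 0.05. Each count of called members between neighbouring days lies within 1 gene of its background share in this fit. With the replicate number as a block, 5 members were called from day 5 to day 10 in the labelled wild type. The share of all tested genes in that fit was not counted. For the counts at an unadjusted p under 0.05, the share of all tested genes was not counted.

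**Figure D3:**
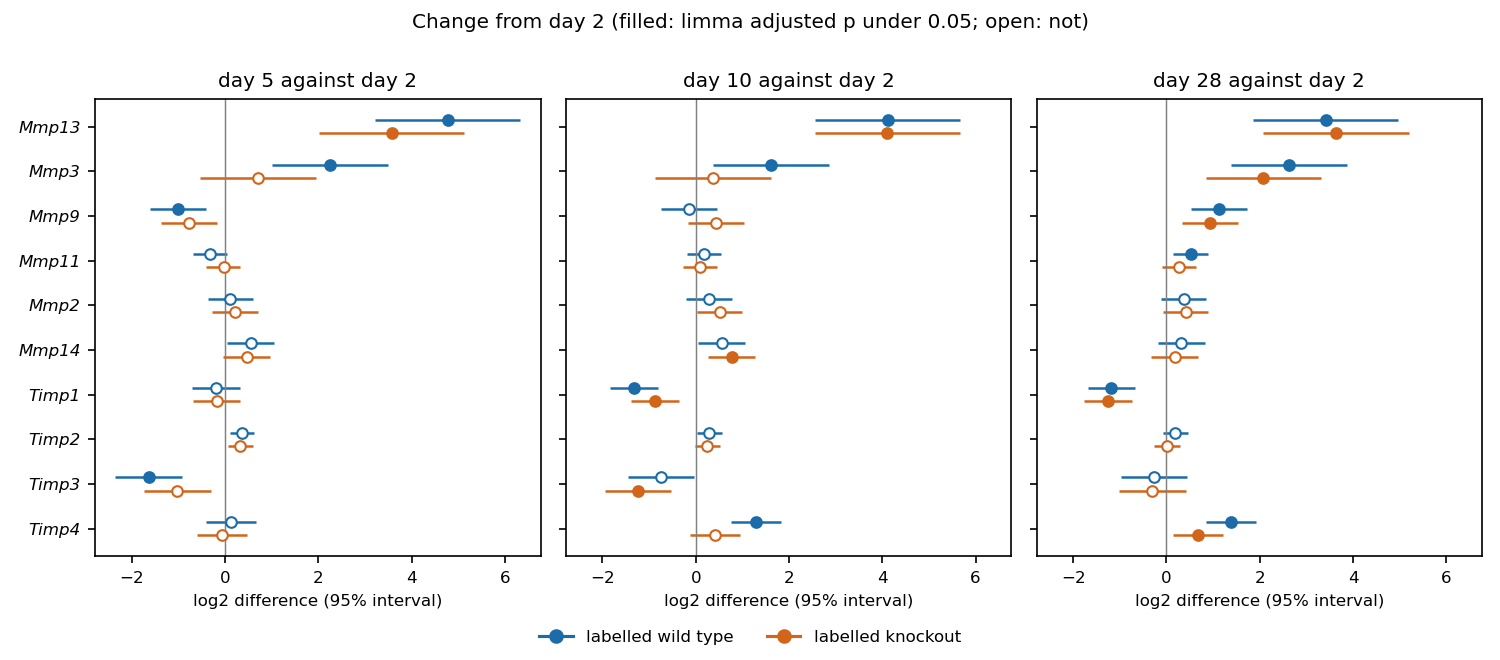
Log2 difference from day 2 (x axis) of each gene (y axis) on days 5, 10 and 28, with 95% intervals from limma. Blue is the labelled wild type, orange the labelled knockout, and filled points passed an adjusted p of 0.05; Mmp13 lies between 3.42 and 4.77 throughout, and Timp1 lies below 0 on days 10 and 28.

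Other metalloproteinase genes were examined as a list of 17, of which 16 had a row and 10 were tested. In the labelled wild type 3 rose and 1 fell by day 5, 3 rose and 2 fell by day 10, and 4 rose and 2 fell by day 28. In the labelled knockout 1 rose and 0 fell, then 3 rose and 1 fell, then 5 rose and 1 fell. With the replicate block 2 rose in the labelled knockout by day 5, Mmp19 being added (0.83, adjusted p = 0.112, or 0.0133 with the block). Since 1 gene is 10% of this list, its fallers on days 5, 10 and 28 lie within 1 gene of the shares of all tested genes given above. So does the riser of the labelled knockout by day 5 in the fit without the block. Mmp12, the macrophage metalloelastase, lay between 3.39 and 4.42 on days 2 and 5 and read 7.51, 5.71 and 7.76 on day 28 in the labelled wild type and 5.86, 9.03 and 4.84 in the labelled knockout. It reached the array median on 0 arrays of days 2 and 5 and on 1 of the 6 arrays of day 10, and so was tested through day 28, which leaves the size of its rise uncertain. Mmp12 is 1 of the risers counted by day 28 in each genotype, so its place there is not independent of the filter. The difference from day 2 was 3.22 (adjusted p = 0.00211) and 2.94 (adjusted p = 0.00432, and 0.0501 with those groups alone). Without replicate 2 of the labelled knockout on day 28, the array with the highest macrophage marker level, the latter was 1.71 (adjusted p = 0.0316). That array also had the highest Mmp12 value, and the part of macrophages was not tested. Mmp12 also reached 6.03 in replicate 2 of the labelled knockout on day 10, whose macrophage marker level of 9.14 was the highest of its group. Mmp19 rose by 2.09 and 1.56, Mmp23 by 1.32 and 1.58, and Mmp16, a membrane-type enzyme, by 1.10 and 1.36 (labelled wild type first, adjusted p from 4.2e-06 to 0.00431).

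Genes that activate or restrain metalloproteinases were a list of 15, of which 12 had a row and 11 were tested. By day 28, 2 rose and 2 fell in the labelled wild type, where 19.6% and 19.2% of all tested genes did, and 3 rose and 1 fell in the labelled knockout (19.4% and 18.6%). With 11 genes tested, the counts of both genotypes are near these shares. Plaur, the receptor that gathers urokinase and so plasmin activity at the cell surface, fell by 2.68 and 2.45 (adjusted p = 1.62e-06 and 6.29e-06). In the labelled wild type it read 9.51, 9.80 and 9.68 on day 2 and 6.91, 7.23 and 6.80 on day 28, with no overlap. Pcsk5, a proprotein convertase of the furin family, rose by 2.01 in both genotypes. Reck, a membrane-anchored inhibitor of metalloproteinases, rose by 1.75 and 1.62 (adjusted p = 0.000226 and 0.000491). Thbs1, the thrombospondin that binds gelatinases, fell by 0.62 in the labelled wild type (adjusted p = 0.00877, and 0.0545 without replicate 1 of day 28), and its change was -0.38 in the labelled knockout (adjusted p = 0.100, but 0.0476 with the replicate block, 0.0363 with centred arrays and 0.0390 without replicate 1 of day 28).

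**Figure D4:**
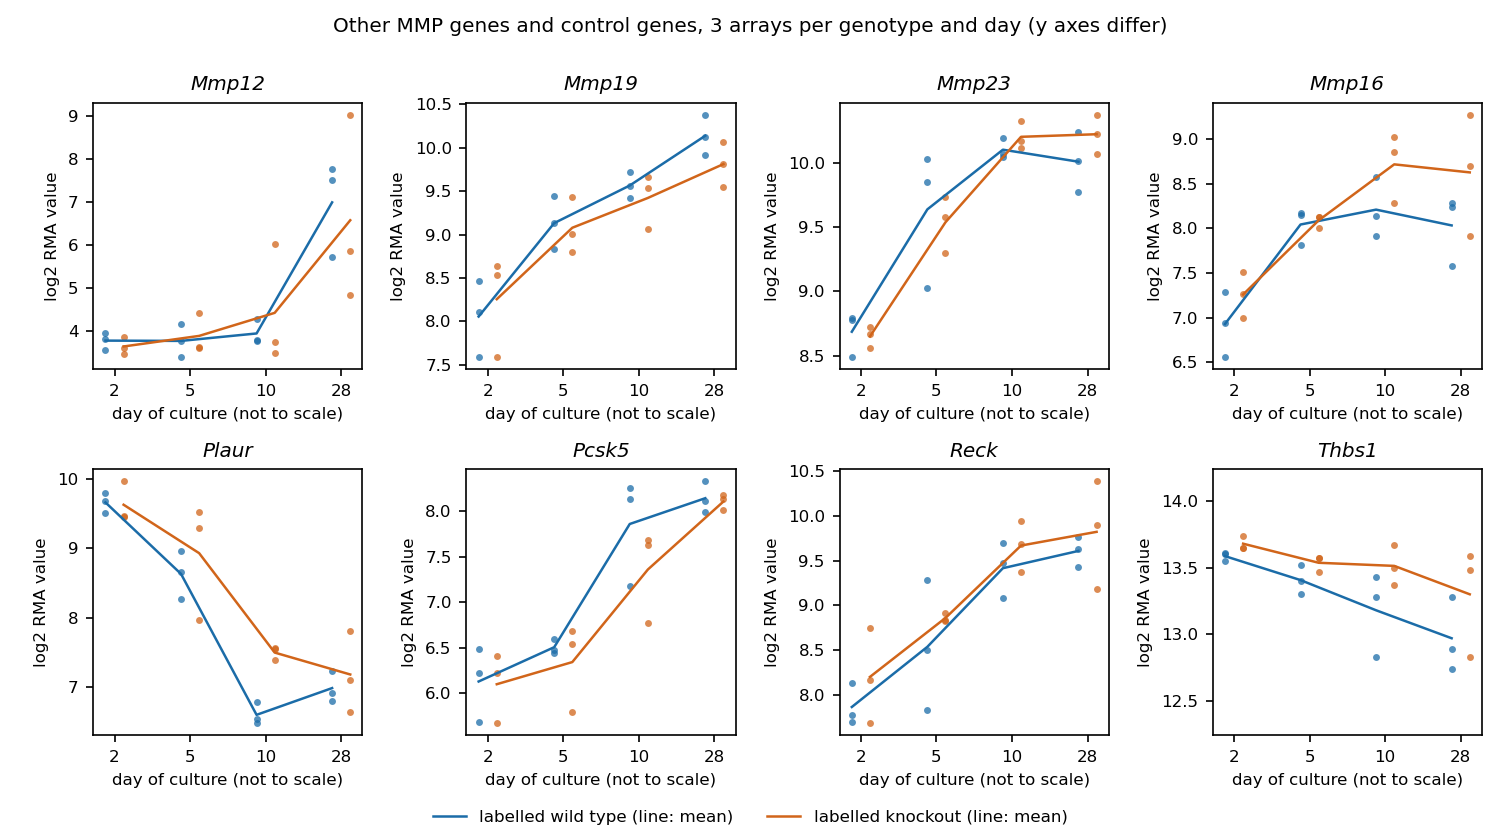
Log2 RMA values (y axis, a separate scale in each panel) of 4 other metalloproteinase genes and 4 genes that control metalloproteinases, by day of culture (x axis, not to scale). Points are single arrays and lines join group means; Mmp12 leaves its early level on day 28, with 9.03 in replicate 2 of the labelled knockout, and Plaur falls from above 9 on day 2.

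Between the genotypes, 0 of the 10 genes were called on day 2, 5, 10 or 28, where 0.00672%, 0.00672%, 0.0336% and 0.228% of all tested genes were called. For the mean over the days the count was 0 of 10 as well (background 0.188%). At an unadjusted p under 0.05 in limma there was 1 gene on day 5, 1 on day 10 and 0 in the other 3 comparisons. The share of all tested genes at that threshold was not counted, and neither gene passed after adjustment (adjusted p = 0.998 and 0.595). The gene on day 5 was Timp3, 10.99 ± 0.66 in the labelled knockout against 10.27 ± 0.72, a difference of 0.72 with an interval of 0.01 to 1.43. The gene on day 10 was Timp4, 4.73 ± 0.19 against 5.34 ± 0.51, a difference of -0.61 with an interval of -1.14 to -0.07. Its size is uncertain, since 2 of 3 labelled knockout arrays reached the array median on day 10. On that day the mean adipocyte marker level was 4.81 to 6.75 against 6.69 to 9.10, and all 8 of its genes were lower in the labelled knockout, with a median difference of -2.41 and 1 gene called. The other cell type lists had median differences between -0.19 (macrophage) and 0.26 (osteoblast). Within groups, the deviations of Timp4 over the 24 arrays had a correlation of -0.31 with the adipocyte list. The part of any of these cell types in the Timp4 difference was not tested. These arrays allow genotype differences of some size. For Mmp13 the interval of day 28 ran from -0.84 to 2.27 and that of the mean over the days from -0.52 to 1.03, while for Timp2 the latter ran from -0.04 to 0.23.

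The change from day 2 differed between the genotypes for 0 of the 10 genes on day 5, 10 or 28 (background 0%, 0% and 0.00672%). At an unadjusted p under 0.05 there were 0, 1 and 0 genes in limma, the 1 being Timp4 on day 10, with a difference of -0.89 and an interval of -1.64 to -0.13. Its adjusted p was 0.999, and the share of all tested genes at the unadjusted threshold was not counted.

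**Figure D5:**
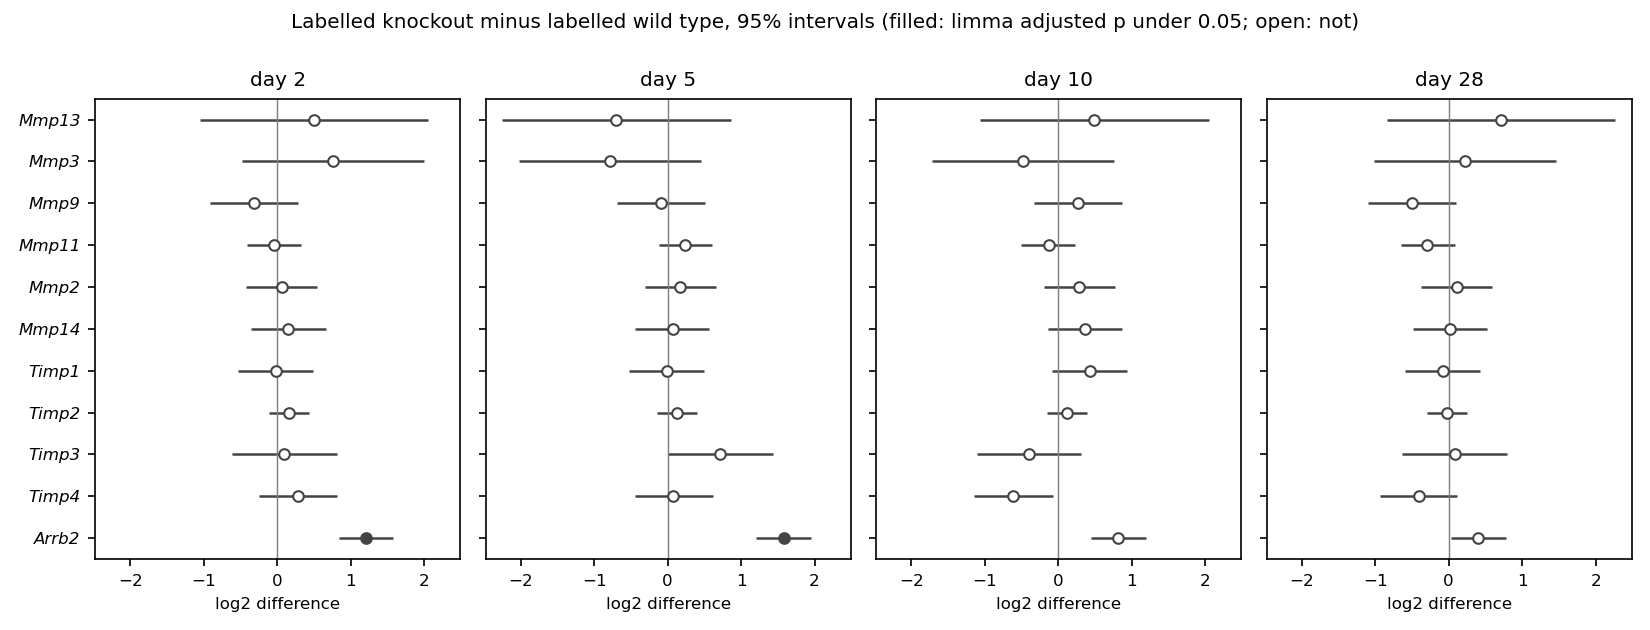
Labelled knockout minus labelled wild type (x axis, log2 difference with its 95% interval from limma) for the 10 genes and Arrb2 (y axis) on each day. Filled points passed an adjusted p of 0.05, which only Arrb2 did, on days 2 and 5; the intervals of Mmp13 and Mmp3 are the widest of the 10 genes.

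The genes with the most similar profile were taken by Pearson correlation with each member over the 24 arrays, among all tested genes. All arrays share the course of the days, so these values describe that course and carry no test. Timp1 was most like Lin9 and Usp14 (0.954 and 0.950, Spearman 0.952 and 0.934), and Mmp14 most like Rcn1 and Sulf2 (0.927 and 0.877). Mmp13 was nearest to Slc27a3 and Mab21l1 (0.926 and 0.916), with lower rank correlations of 0.710 and 0.723. Mmp2 was nearest to Ddx6 and Dstyk (0.916 and 0.915), Timp4 to Plbd1 and Mdk (0.905 and 0.884), and Mmp9 to Stim1 and Khnyn (0.878 and 0.863). Timp3 was nearest to Phldb2 and Cmklr1 (0.868 and 0.823), Mmp11 to Numa1 and Foxj2 (0.863 and 0.850), Mmp3 to Trim30a and Ifi205 (0.840 and 0.829), and Timp2 to Prrg4 and Ccnd1 (0.835 and 0.775).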

How the data were processed

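The authors deposited log2 RMA values, 1 per array and transcript cluster, computed in Affymetrix Expression Console according to their notes (per the submitters' processing notes, which name no versions). RMA gives all arrays a common distribution, which removes a shift shared by most genes; array medians were 4.55 to 4.72. Arrays have no depth, and their number limits the precision. Of 41345 clusters 23521 had a single symbol in the platform annotation, 1814 several and 16010 none listed; 23328 were matched to RefSeq on GRCm38.p6, which gave current symbols and the gene positions. The single-symbol row with the highest mean stood for a gene, and genes at or above the array median on at least 3 of 24 arrays were tested.

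With limma 3.58.1 (R 4.3.3), all 24 arrays entered a model with a mean for each group (lmFit, eBayes; 16 residual and 4 prior degrees of freedom; two-sided p). In a simulation, each of 14892 genes was drawn from its mean over the 24 arrays and its spread within groups. On day 28 of the labelled wild type 200 genes were then shifted. Against day 2, 73% of shifts of 1 and 96% of shifts of 2 on the log2 scale were recovered. In the data 19.6% of genes rose and 19.2% fell in that comparison, a far larger share, so these rates describe the simulation only. Alternatives were no filter, the mean of a gene's rows, arrays centred on their medians, eBayes with trend and robust, the groups compared alone, the replicate number as a fixed or random block, and leaving out each array. The labels call replicates independently prepared osteoblasts.

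Replicate numbers recur in all groups. Deviations from group means of same-numbered arrays correlated above 0.1, the limit used for a pairing, in every pair of the 5 comparisons within the labelled knockout (0.105 to 0.63) and, in the labelled wild type, for day 5 against day 2 (0.25 to 0.35) and day 10 against day 5 (0.41 to 0.63). The main adjusted p and the counts of called genes are from the unpaired fit in these comparisons too. The replicate block is the paired alternative, and the member calls that it changed are given with each gene. The limit was not met in the other comparisons.

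The 10 members and the gene lists were chosen with earlier results of these data known. Named are all members, Arrb2, up to 4 genes past the threshold with the largest change on day 28 of the labelled wild type from each list, and the 2 nearest genes by correlation of each member. Calcr, Oscar and Dcstamp were named after their values were seen. Motifs were searched in Python 3.11.15.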

Additional observations from a re-analysis of the deposited data

How the results depend on the processing

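Over the 18 comparisons and their alternatives, 242 of 269 counts of called members lay within 1.5 times the reported count and 27 did not. No called difference of a member changed sign. In fits of the compared groups alone, the count by day 5 was 2 in the labelled wild type and 0 in the labelled knockout, the count from day 10 to day 28 in the labelled wild type was 0, and that from day 5 to day 10 in the labelled knockout was 0. With arrays centred on their medians, the count from day 10 to day 28 in the labelled wild type was 0. With the replicate block the count was 2 by day 5 in the labelled knockout and 5 from day 5 to day 10 in the labelled wild type. With a random replicate block (consensus correlation 0.158) the latter was 4. The shares of all tested genes called under the alternatives were not counted, so these counts cannot be set against a background. Leaving out 1 array gave 1 to 3 members by day 5, 2 to 4 from day 5 to day 10 and 0 to 1 from day 10 to day 28 in the labelled wild type. In the labelled knockout it gave 0 to 1 by day 5, 1 to 4 by day 10, 3 to 6 by day 28 and 0 to 2 from day 5 to day 10. The cause was not tested, beyond the smaller number of arrays in some of these fits. Of single differences of members, 55 lost and 17 gained a call under an alternative. Beyond the calls given with each gene, the replicate block changed no other call of a member.

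With 3 arrays per group, differences of 1 on the log2 scale are missed for some genes, and genes below the array median, such as Timp4 on days 2 and 5, have uncertain changes.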
